A study of Mus musculus with 31 samples.

Results

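The high-fat diet was compared with chow in the gastrocnemius, a fast calf muscle, of wild-type male mice. The comparison rested on 8 of the 31 RNA-seq libraries of a study that crossed genotype (wild type or lacking MuRF1, a ubiquitin ligase of muscle that Trim63 encodes), sex and diet. The 4 high-fat muscles came from wild-type males that ate chow from weaning and a diet with 45% fat from lard from 8 weeks of age. The 4 chow muscles came from wild-type males kept on the standard chow. Both groups ate freely, and the muscle was taken at 30 weeks of age, so the diet had been fed for most of adult life. Neither group carried a transgene or a deletion by its labels, and the strain was not given in the sources used here. A library was placed in the group whose title carries the animal number of its count file. For the 8 libraries compared here the title and the file carry the same number, while for 5 of the other libraries they do not give the same group, and the file of 1 of these carries a number found in no title, so that 30 libraries had a group. Each library carries its own animal number and was taken as 1 animal. The diet comparison of 4 high-fat and 4 chow wild-type females and that of 3 high-fat and 4 chow males lacking MuRF1, with the same diets and age, are used at the end.

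Muscle burns fatty acids or glucose according to supply, and a set of genes follows that choice. Fatty acids bind the PPAR nuclear receptors, which switch on genes for fatty acid handling. Among these are Pdk4, a kinase that shuts the pyruvate dehydrogenase complex and so spares glucose, and Angptl4, a secreted inhibitor of lipoprotein lipase. Insulin acts the other way on Pdk4 and raises Hk2, the hexokinase that traps glucose in the fibre. A circadian clock also runs in muscle fibres: the factors Arntl and Clock or Npas2 bind E-boxes and switch on the Per and Cry repressors and the output factors Dbp, Tef and Hlf, which act through D-boxes.

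Libraries held between 9342028 and 12420772 counts in the high-fat group and between 12834078 and 13924802 in the chow group, and 3 counts correspond to 0.2415 to 0.3211 CPM (counts scaled to the library total) in the high-fat libraries and 0.2154 to 0.2338 CPM in the chow libraries. Trim63 was measured first because it is the gene deleted elsewhere in the study. It stood at 222, 221, 264 and 241 CPM in the high-fat muscles and at 203, 243, 107 and 271 CPM in the chow muscles, against 0.49 to 1.83 CPM in the 3 high-fat male knockouts and 0.55 to 7.75 CPM in the 4 chow male knockouts. All 8 libraries thus carried Trim63, and chow 3 was low. The diet difference of Trim63 was 0.20 ± 0.32 on the log2 scale (edgeR, adjusted p = 0.885), and without chow 3 it was -0.01 (adjusted p = 0.996). Ddx3y, which only the Y chromosome carries, was read at 37.6 to 54.5 CPM in the high-fat muscles and 38.4 to 55.7 CPM in the chow muscles. Summed fast-fibre markers reached 114500 to 156500 CPM in the high-fat group and 138300 to 183800 CPM in the chow group. Chow 4 and high-fat 3 lay farthest from their own groups, with a mean absolute deviation of 0.203 and 0.201 log2 units, against 0.142 to 0.162 in the other 6 libraries. The counts of called genes over all genes and in the PPAR-responsive, clock and matrix lists are also given without both, a setting added after the data were seen.

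A small set of genes separated the diets. Of 14024 genes tested, 23 rose (0.164%) and 26 fell (0.185%) in high-fat muscle at an adjusted p under 0.05, together 0.349%, and 12 of the increases and 10 of the decreases were at least 2-fold. The median log2 fold change of all genes was 0.0041. The groups of 4 did not overlap for 22 of the 23 increases and 24 of the 26 decreases, while 3.15% of all genes lay higher without overlap and 2.74% lower, 5.89% in all. Leaving out 1 library at a time gave 11 to 28 increases and 6 to 38 decreases. The lowest counts came without high-fat 3 (11 and 6), high-fat 1 (15 and 6), chow 2 (12 and 8), chow 1 (13 and 11) and chow 3 (20 and 15), and without both high-fat 3 and chow 4, 17 genes rose and 11 fell, 22 of them among the 49. Called in every one of the 8 omissions were 10 genes: Slc15a5, Sbk2, Acot2, Cacna2d4, Npnt, Angptl4, Mid1ip1, Lrrn4cl, Idh1 and Slc25a30. Grouping all 31 libraries by their own titles left 0 increases and 1 decrease, Acot2, with 1319 genes at an unadjusted p under 0.05. That grouping changes none of the 8 libraries. It puts, for example, a male knockout library among the female chow ones in the shared estimate of spread. Whether this removed the calls was not tested. A fit to the 8 libraries alone called 29 increases and 27 decreases, and 31 of these calls were among the 49.

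Genes that fatty acids switch on through PPAR receptors held the 2 largest decreases among called genes, Angptl4 and Pdk4, and the called decrease with the smallest p, Acot2. Angptl4 (chromosome 17, 33773750 to 33781830, mm10) stood at 1.91, 3.26, 1.48 and 1.58 CPM in the high-fat muscles, against 12.2, 15.5, 9.55 and 8.80 CPM in the chow muscles. Every high-fat library lay below every chow library, and the log2 fold change was -2.51 ± 0.40 (standard error; edgeR, adjusted p = 0.00263). Acot2 (chromosome 12, 83987861 to 83993873), a mitochondrial thioesterase that splits fatty acyl-CoA, stood at 10.0, 5.99, 8.77 and 6.84 CPM in the high-fat muscles, against 22.7, 21.5, 19.2 and 23.4 CPM in the chow muscles. These groups were also apart, with a log2 fold change of -1.45 ± 0.22 (adjusted p = 0.000954). Acot1, its cytosolic neighbour and close paralog, had 1.03, 0.32, 1.82 and 0.08 CPM in the high-fat muscles and 2.47, 2.62, 2.54 and 2.88 CPM in the chow muscles. Its difference of -1.65 ± 0.54 did not pass the test (adjusted p = 0.205). Its value of 0.32 CPM lies at the level of 3 counts and that of 0.08 CPM below it. How reads shared by Acot1 and Acot2 were counted is not known.

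Pdk4 (chromosome 6, 5483351 to 5496309) carried the highest level of the 3. It stood at 344, 328, 288 and 285 CPM in the high-fat muscles, against 1414, 1404, 1377 and 719.9 CPM in the chow muscles, a log2 fold change of -1.98 ± 0.39 (adjusted p = 0.0189). The groups did not overlap, and chow 4 lay far below the other 3 chow libraries. The call was lost without any 1 of the other 7 libraries (adjusted p up to 0.076), with log2 fold changes between -2.17 and -1.91, and without both high-fat 3 and chow 4 (-2.14, adjusted p = 0.0561).

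**Figure D1:**
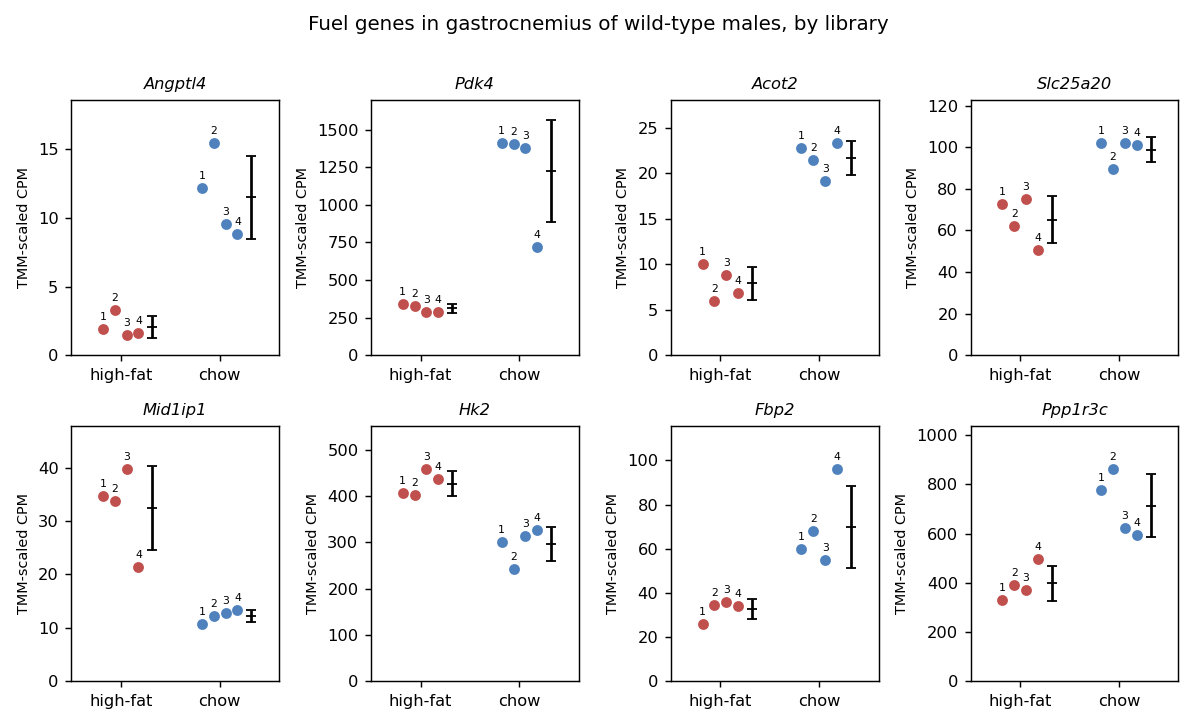
Level of 8 genes of fuel handling in TMM-scaled CPM (vertical axis, from 0) for the 4 high-fat and 4 chow libraries of wild-type males (points, numbered by replicate; bars show mean ± SD). Angptl4, Pdk4, Acot2, Slc25a20, Fbp2 and Ppp1r3c lie lower and Mid1ip1 and Hk2 higher in all 4 high-fat libraries, and Slc25a20 alone among them is not called.

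The PPAR-responsive list as a whole leaned the same way, but beyond these 3 genes no member passed the test. The counts and the median that follow include the 3. Of 32 listed genes that could be tested, 0 rose, 3 fell and 29 were not called, with 28 fitted lower and a median log2 fold change of -0.32, against 0.0041 over all genes. The groups did not overlap for 9 of the 32 genes, all 9 lower, where 2.74% of all genes were lower without overlap and 5.89% did not overlap in either direction. Slc25a20, the carnitine carrier that brings fatty acids into mitochondria, stood at 72.8, 62.2, 75.2 and 50.4 CPM in the high-fat muscles, against 102, 89.7, 102 and 101.2 CPM in the chow muscles (-0.60 ± 0.15, adjusted p = 0.0716). Ucp3, an uncoupling protein of muscle mitochondria, had 85.9, 73.7, 85.2 and 106 CPM in the high-fat muscles, against 158, 180, 134 and 150 CPM in the chow muscles (-0.83 ± 0.27, adjusted p = 0.229). Both were apart in all 8 libraries and neither was called.

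Fabp3, the fatty acid carrier of oxidative fibres, stood at 438, 290, 525 and 180 CPM in the high-fat muscles, against 690, 683, 788 and 656 CPM in the chow muscles (-0.97 ± 0.34, adjusted p = 0.261). High-fat 4 was the lowest there, and it was the lowest high-fat library for 24 of the 32 PPAR-responsive genes and for all 15 slow-fibre contractile genes. Its summed slow-fibre markers were 1004 CPM, against 2048 to 2404 CPM in the other 3 high-fat libraries and 1306 to 1977 CPM in the chow group. None of the 10 slow-fibre markers was at 0, and their part in the fatty acid genes was not tested. Without high-fat 4 the median of the PPAR-responsive list was -0.19, while Acot2 (-1.37, adjusted p = 0.00713) and Angptl4 (-2.40, adjusted p = 0.0134) remained called; without both libraries farthest from their groups the median was -0.53 and 2 genes of the list were called lower.

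**Figure D2:**
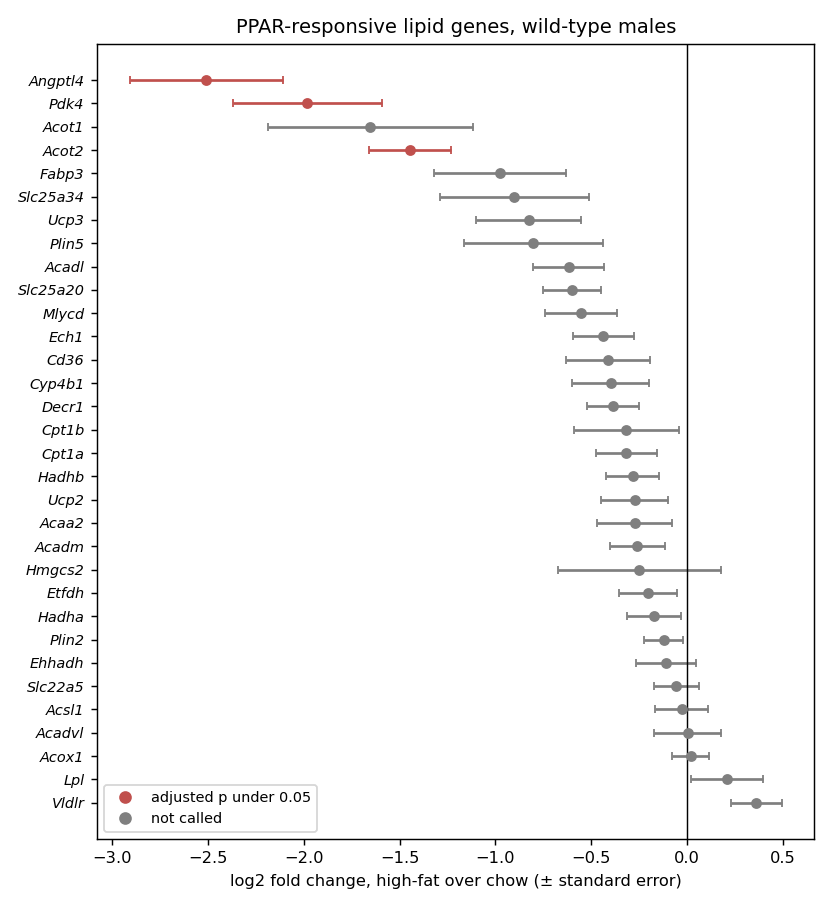
Log2 fold change, high-fat over chow, of the 32 PPAR-responsive genes tested in wild-type males (horizontal axis; points with ± 1 standard error; red, adjusted p under 0.05). Angptl4, Pdk4 and Acot2 are called lower, 28 of the 32 genes lie left of 0, and Vldlr lies farthest to the right at 0.36.

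The enzymes of mitochondrial beta-oxidation, some of them also on that list, were not called, where 0.349% of all genes were. Of 22 genes 0 rose and 0 fell by edgeR, 4 were lower at an unadjusted p under 0.05, DESeq2 called 1 lower and limma voom 3 lower, 16 were fitted lower, and the median was -0.20 (-0.09 without high-fat 4). Acadl, an acyl-CoA dehydrogenase, had 170 to 314 CPM in the high-fat group and 341 to 412 CPM in the chow group (-0.62 ± 0.18, adjusted p = 0.157). Acadvl, the dehydrogenase of very long chains, had 139 to 212 CPM in the high-fat group and 133 to 208 CPM in the chow group (0.00 ± 0.18, adjusted p = 0.998). Of 22 genes of fatty acid uptake and activation, 0 rose and 1 fell, the same Acot2, with a median of -0.06. Of 26 genes of lipid droplets and lipolysis 0 were called, and Plin2, the droplet coat protein, was at -0.12 ± 0.10.

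Among genes of glucose, glycogen and fat synthesis, Mid1ip1, Idh1 and Hk2 rose while Fbp2, Ppp1r3c and Ppp1r3d fell. Mid1ip1 (X chromosome, 10715013 to 10719690), which helps acetyl-CoA carboxylase to assemble for fatty acid synthesis, stood at 34.7, 33.7, 39.9 and 21.3 CPM in the high-fat muscles, against 10.7, 12.1, 12.7 and 13.4 CPM in the chow muscles. All 4 high-fat libraries lay above the chow libraries (1.41 ± 0.23, adjusted p = 0.00354). Idh1 (chromosome 1, 65158616 to 65186500), the cytosolic enzyme that makes NADPH from isocitrate, stood at 28.0, 19.4, 22.1 and 20.3 CPM in the high-fat muscles, against 14.1, 12.8, 14.6 and 12.4 CPM in the chow muscles (0.74 ± 0.13, adjusted p = 0.00522), again without overlap. Of 21 genes of fatty acid synthesis and desaturation, 1 rose (Mid1ip1), 0 fell and 20 were not called, with 17 fitted higher and a median of 0.29 (0.20 without chow 4, 0.13 without both farthest libraries). Fasn, fatty acid synthase, ranged from 25.8 to 54.5 CPM in the high-fat group and from 9.76 to 27.5 CPM in the chow group (1.30 ± 0.69, adjusted p = 0.529). Fasn overlapped between the diets, and so did Scd1, the desaturase (1.11 ± 0.55, adjusted p = 0.487). Adipocytes express both genes at high level; the 19 adipocyte markers summed to 2753 to 3710 CPM in the high-fat group and 3183 to 3935 CPM in the chow group, and none was at 0 in all 8 libraries. Car3, Lpl and Plin4, which muscle also expresses, made up most of that sum, with means of 1950.0, 639 and 204 CPM in the high-fat group and 2480.0, 552 and 238 CPM in the chow group. Single adipocyte markers went both ways without a call, and 10 of 18 were fitted higher. Among them were Cfd (2.12), Retn (1.30), Plin1 (0.80), Adipoq (0.24), Fabp4 (-0.30) and Lep (-0.93) on the log2 scale. Scd1 and Thrsp are on the marker list and the synthesis list alike, so the sums are not separate from these genes. The part of adipocytes in these values was not tested.

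Hk2 (chromosome 6, 82725025 to 82774454) stood at 407, 404, 460.0 and 438 CPM in the high-fat muscles, against 299.8, 243, 314 and 327 CPM in the chow muscles. It rose without overlap (0.53 ± 0.10, adjusted p = 0.0121), and the call was lost without chow 2 or high-fat 3 (adjusted p up to 0.0739). Slc2a4, the insulin-responsive glucose transporter, ranged from 517 to 589 CPM in the high-fat group and from 410 to 466 CPM in the chow group, apart but not called (0.33 ± 0.09, adjusted p = 0.0935).

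Fbp2, the muscle fructose bisphosphatase, which turns lactate carbon back towards glycogen, stood at 26.0, 34.5, 35.8 and 34.2 CPM in the high-fat muscles, against 59.8, 68.2, 55.0 and 96.3 CPM in the chow muscles (-1.10 ± 0.21, adjusted p = 0.0144; 0.0647 without high-fat 1). Ppp1r3c, which ties protein phosphatase to glycogen and so favours glycogen synthesis, stood at 329, 389, 372 and 496 CPM in the high-fat muscles, against 777, 865, 622 and 593 CPM in the chow muscles (-0.85 ± 0.17, adjusted p = 0.0153). Its relative Ppp1r3d stood at 2.71, 3.68, 2.69 and 3.42 CPM in the high-fat muscles, against 8.17, 5.23, 5.85 and 6.32 CPM in the chow muscles (-1.04 ± 0.22, adjusted p = 0.025). All 3 fell with no overlap between the diets, and the calls of Ppp1r3c and Ppp1r3d were lost without any 1 of chow 1, high-fat 1 or high-fat 3, that of Ppp1r3c also without chow 2 (adjusted p up to 0.126).

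In the glycolysis and glycogen list as a whole 1 of 31 genes rose (Hk2), 1 fell (Ppp1r3c) and 29 were not called, with a median of 0.04. Of the 31 genes of the pyruvate dehydrogenase complex and TCA cycle, Pdk4 alone was called, and the median was -0.01. Among 46 insulin and IGF signalling genes 0 rose and 1 fell: Grb10, an adaptor that restrains the insulin receptor, stood at 33.2, 35.8, 24.6 and 30.3 CPM in the high-fat muscles, against 43.7, 43.0, 46.1 and 35.7 CPM in the chow muscles (-0.45 ± 0.10, adjusted p = 0.0325). The groups met at high-fat 2 and chow 4, and the call was lost in 6 of the 8 omissions, all but those of high-fat 2 and chow 4 (adjusted p up to 0.111).

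The clock genes Per2, Usp2 and Tef rose, and chow 4 sat apart from its group across the clock list. Of 23 clock and clock-output genes tested 3 rose, 0 fell and 20 were not called, with a median of 0.18, where 0.164% of all genes rose and 0.185% fell. DESeq2 called 4 higher and 1 lower, limma voom 10 higher and 3 lower, and 6 rose without high-fat 3 and chow 4. Per2, a repressor of the clock, stood at 23.6, 23.0, 19.5 and 17.6 CPM in the high-fat muscles, against 6.16, 5.99, 5.39 and 12.3 CPM in the chow muscles (1.49 ± 0.33, adjusted p = 0.0466). Usp2, a clock-driven deubiquitinase, stood at 184, 163, 214 and 169 CPM in the high-fat muscles, against 91.9, 100.9, 92.5 and 156 CPM in the chow muscles (0.72 ± 0.16, adjusted p = 0.0253). Tef, an output factor, stood at 434, 463, 465 and 435 CPM in the high-fat muscles, against 297, 318, 298 and 384 CPM in the chow muscles (0.47 ± 0.10, adjusted p = 0.0200). In each of the 3 genes chow 4 was the chow library nearest to the high-fat group.

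Arntl, the activator that the Per and Cry proteins block, ran the opposite way. It stood at 12.3, 14.3, 9.29 and 21.0 CPM in the high-fat muscles, against 51.5, 41.9, 45.3 and 28.2 CPM in the chow muscles (-1.55 ± 0.37, adjusted p = 0.0610). The groups did not overlap, with high-fat 4 and chow 4 nearest to each other. Dbp, the output factor with the widest swing, stood at 81.6, 79.0, 110 and 47.2 CPM in the high-fat muscles, against 11.9, 15.3, 11.0 and 78.1 CPM in the chow muscles (1.46 ± 0.54, adjusted p = 0.294). Ciart, a repressor in the same loop, stood at 11.4, 7.67, 14.9 and 5.50 CPM in the high-fat muscles, against 1.62, 1.45, 1.85 and 10.2 CPM in the chow muscles (1.41 ± 0.50, adjusted p = 0.262). Chow 4 thus lay among the high-fat libraries for both Dbp and Ciart, and it held the highest chow level for 17 of the 23 clock genes. It was also the highest chow library for 15 of 18 fast-fibre and 53 of 77 oxidative phosphorylation genes, and the lowest for 14 of 18 endothelial markers. An extreme rank of chow 4 was thus not particular to the clock list.

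Without chow 4, 9 clock genes rose and 2 fell. The increases were Usp2 (0.94 ± 0.15), Per3 (1.2 ± 0.20), Ciart (2.60 ± 0.45), Tef (0.56 ± 0.10), Dbp (2.64 ± 0.49), Per2 (1.84 ± 0.35), Per1 (1.5 ± 0.31), Cry2 (0.66 ± 0.15) and Hlf (0.67 ± 0.16). The decreases were Npas2 (-2.63 ± 0.61) and Arntl (-1.70 ± 0.38), and their adjusted p values ran from 0.00201 for Usp2 to 0.0439 for Arntl and Hlf. Without any 1 of chow 1, chow 2, chow 3, high-fat 1 or high-fat 3, by contrast, 0 clock genes were called, while 1 rose without high-fat 2, and 3 rose and 2 fell without high-fat 4. The hour at which each muscle was taken was not given in the sources used here. Chow 4 also held the lowest Pdk4 of its group, the highest Odc1 (191 CPM, against 111 to 121 CPM in the other chow libraries) and the lowest level for 41 of 43 extracellular matrix genes.

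**Figure D3:**
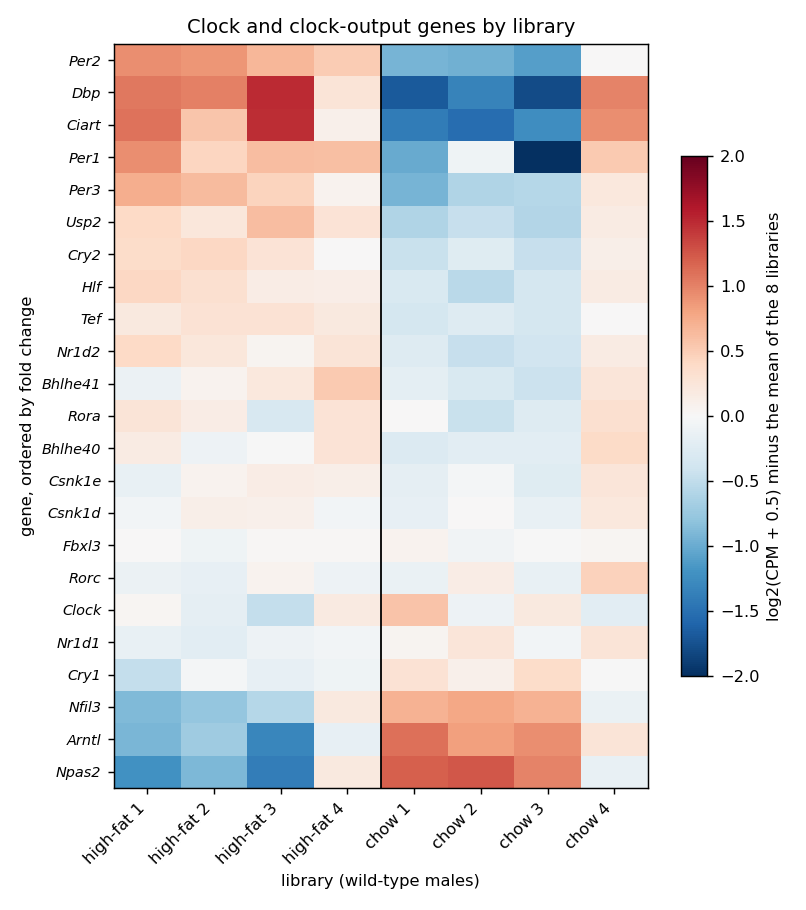
Heat map of 23 clock and clock-output genes (vertical axis, ordered by fold change) in the 8 libraries of wild-type males (horizontal axis, high-fat left of the line, chow right). Colour is log2(CPM + 0.5) minus the mean of the 8 libraries, on a scale that ends at 2 in each direction; Per2, Dbp and Ciart are red in the high-fat libraries and blue in chow 1, 2 and 3, Arntl and Npas2 mostly run the other way, and chow 4 resembles the high-fat side for Dbp and Ciart.

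The clock genes are known for E-boxes and D-boxes near their starts, so windows were looked up for 10 of them and found for 9. Of the 9, 4 held a motif (Tef, Ciart, Per3 and 1 of the 2 starts of Per1) and Usp2, Arntl, Dbp, Npas2 and Nfil3 held neither. The 3 shown were picked because they hold a motif, Ciart and Per3 are not called with all libraries, and the windows run from 250 bases before to 50 bases after the RefSeq start (GRCm38.p6). Capitals mark a CACGTG E-box, which reads the same on both strands, in Tef and Ciart, and a TTANGTAA D-box, searched on both strands, in Per3. Tef has 2 annotated starts with 1 E-box each. Positions are chr15:81802423-81802722 and chr15:81811164-81811463, plus strand, for Tef, chr3:95882179-95882478, minus strand, for Ciart, and chr4:151044616-151044915, minus strand, for Per3.
Tef, first start: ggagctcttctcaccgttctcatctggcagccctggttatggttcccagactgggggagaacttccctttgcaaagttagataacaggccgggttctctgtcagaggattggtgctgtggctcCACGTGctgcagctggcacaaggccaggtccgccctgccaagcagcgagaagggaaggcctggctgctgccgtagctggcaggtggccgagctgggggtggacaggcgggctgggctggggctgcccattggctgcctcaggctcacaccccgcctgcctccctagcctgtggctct
Tef, second start: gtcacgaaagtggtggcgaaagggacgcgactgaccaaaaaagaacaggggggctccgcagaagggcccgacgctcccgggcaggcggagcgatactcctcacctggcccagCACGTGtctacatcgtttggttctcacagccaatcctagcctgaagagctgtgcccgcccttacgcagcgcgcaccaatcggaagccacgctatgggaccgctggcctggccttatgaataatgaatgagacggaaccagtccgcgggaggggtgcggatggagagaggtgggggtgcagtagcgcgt
Ciart: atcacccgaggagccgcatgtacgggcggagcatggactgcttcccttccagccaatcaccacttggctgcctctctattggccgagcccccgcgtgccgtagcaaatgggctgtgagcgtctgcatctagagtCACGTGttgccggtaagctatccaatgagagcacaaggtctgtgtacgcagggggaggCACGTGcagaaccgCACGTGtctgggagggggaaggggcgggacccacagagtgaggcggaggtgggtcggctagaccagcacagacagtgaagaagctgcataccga
Per3: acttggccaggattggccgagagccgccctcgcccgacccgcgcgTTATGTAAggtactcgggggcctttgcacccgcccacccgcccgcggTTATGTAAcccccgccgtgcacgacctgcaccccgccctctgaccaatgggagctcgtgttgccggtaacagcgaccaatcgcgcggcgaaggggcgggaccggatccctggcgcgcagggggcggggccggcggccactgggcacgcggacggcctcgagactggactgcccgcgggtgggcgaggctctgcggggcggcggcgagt
The window of Ciart held 3 E-boxes and that of Per3 held 2 D-boxes. Over 32817 windows of this length, 7.15% held an E-box and 2.32% a D-box. Counted by gene, with a match in any of its windows, these were 8.09% and 2.72% of 27025 genes. Of the 49 genes called in wild-type males 39 had a window, and 8 of the 39 held an E-box in at least 1 window and 0 a D-box. Angptl4 and Per2 were among the called genes without a window. The windows of Acot2, Pdk4 and Usp2 held none of the motifs searched. The PPAR direct repeat, which is AGGTCA given again after any 1 base, was searched on both strands. It was in 0 of the 39 genes and in 0.05% of all genes, and at that share 39 genes may hold none. A single AGGTCA was in 8 of the 39 genes (20.5%), where 18.13% of all genes held it. A match of letters is a description and not a binding site.

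The largest increases lay outside these pathways. Slc15a5 (chromosome 6, 137983586 to 138079916), of the peptide transporter family, stood at 9.47, 9.45, 12.5 and 22.2 CPM in the high-fat muscles, against 3.85, 1.52, 2.31 and 1.84 CPM in the chow muscles (2.5 ± 0.31, adjusted p = 8.42e-05). Cyp2f2, a cytochrome P450, stood at 4.30, 1.68, 2.69 and 1.92 CPM in the high-fat muscles, against 0.39, 0.41, 0.85 and 0.16 CPM in the chow muscles (2.54 ± 0.52, adjusted p = 0.0182), with 1 chow value below the level of 3 counts and a call that held in 3 of the 8 omissions. Irx3os, a transcript antisense to the Irx3 locus, stood at 2.39, 3.57, 2.17 and 8.67 CPM in the high-fat muscles, against 0.85, 1.03, 1.31 and 0.88 CPM in the chow muscles (2.04 ± 0.38, adjusted p = 0.0089). Each of the 3 was higher in all 4 high-fat libraries. Irx3os was not called without high-fat 4 (adjusted p = 0.0607), and because the strand setting of the counting is not given in the sources used here, its reads cannot be told apart from those of an overlapping gene.

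Cacna2d4, an auxiliary subunit of voltage-gated calcium channels, stood at 13.5, 16.2, 16.6 and 27.6 CPM in the high-fat muscles, against 7.55, 4.34, 8.70 and 4.72 CPM in the chow muscles (1.55 ± 0.24, adjusted p = 0.000965). Npnt, a matrix protein that binds integrins, stood at 16.3, 23.0, 17.6 and 36.0 CPM in the high-fat muscles, against 11.1, 8.06, 8.47 and 7.36 CPM in the chow muscles (1.41 ± 0.22, adjusted p = 0.00174). Sbk2, a protein kinase of striated muscle, stood at 138, 163, 161 and 263 CPM in the high-fat muscles, against 80.8, 83.6, 95.2 and 102 CPM in the chow muscles (1.00 ± 0.14, adjusted p = 0.000332). High-fat 4 was the highest library for these 3 genes and for Slc15a5, Irx3os and Neto2, the same library that was lowest for the slow-fibre genes. Without it Slc15a5, Cacna2d4, Npnt and Sbk2 remained called, with adjusted p no higher than 0.0154 in any omission, and Neto2 (26.1 CPM in high-fat 4, against 9.98 to 11.6 CPM in the other 3) was lost (1.19 ± 0.26 with all libraries, adjusted p = 0.0262; up to 0.144 in the omissions).

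Slc25a30, a mitochondrial carrier, stood at 12.4, 11.9, 8.34 and 13.5 CPM in the high-fat muscles, against 4.32, 3.44, 3.93 and 5.52 CPM in the chow muscles (1.43 ± 0.26, adjusted p = 0.00782). Lrrn4cl, a membrane protein, stood at 19.3, 19.2, 18.0 and 16.0 CPM in the high-fat muscles, against 8.86, 10.1, 10.2 and 8.00 CPM in the chow muscles (0.96 ± 0.17, adjusted p = 0.00416). The groups did not overlap in either gene. Further increases were Tspan4, a tetraspanin (1.02 ± 0.21), Plekho1 (0.82 ± 0.18, with overlap), Casp12, a caspase of the endoplasmic reticulum (0.76 ± 0.17), Tmem37 (0.75 ± 0.15), Slc47a1, a cation exporter (0.54 ± 0.12), and Lmod3, a leiomodin that builds thin filaments (0.48 ± 0.10), with adjusted p from 0.0166 to 0.0325.

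Among the decreases outside fuel handling, Mybph, a myosin-binding protein, stood at 46.1, 55.7, 43.5 and 56.9 CPM in the high-fat muscles, against 102, 173.5, 100.4 and 86.0 CPM in the chow muscles (-1.19 ± 0.23, adjusted p = 0.0144). Slc25a36, the pyrimidine nucleotide carrier of mitochondria, stood at 35.0, 38.0, 26.8 and 46.4 CPM in the high-fat muscles, against 75.8, 66.2, 64.7 and 52.2 CPM in the chow muscles (-0.82 ± 0.16, adjusted p = 0.0121). Cdkn1a, the cell-cycle inhibitor, stood at 11.6, 14.1, 11.7 and 10.5 CPM in the high-fat muscles, against 24.7, 25.2, 17.0 and 18.4 CPM in the chow muscles (-0.84 ± 0.18, adjusted p = 0.0266). None of the 3 overlapped between the diets. Mybph was lost without chow 2, high-fat 1 or high-fat 3 and Slc25a36 without chow 1 or high-fat 3, while Cdkn1a was called in 3 of the 8 omissions. Gm26767, a predicted gene picked out after its values were seen, also fell (-1.58 ± 0.33, adjusted p = 0.0203) and lies beside Slc25a36 on chromosome 9, at 97068183 to 97073429 against 97074961 to 97111157. Other decreases were Wsb1, a ubiquitin ligase subunit (-1.12 ± 0.25), Miga2, a factor of mitochondrial fusion (-0.92 ± 0.18, with overlap at chow 4), and Aqp7, a glycerol channel (-0.91 ± 0.21). Smaller ones were Zhx2, a transcription repressor (-0.65 ± 0.14), Klhl31 (-0.59 ± 0.12), Slc20a1, a phosphate transporter (-0.59 ± 0.12), Atp1b2, a sodium pump subunit (-0.53 ± 0.11), and Pcbp2, an RNA-binding protein (-0.40 ± 0.08). These 8 had adjusted p from 0.0153 to 0.0466. The remaining called genes were Zranb3, a DNA-remodelling helicase, Alg3, a mannosyltransferase, Naa40, an N-terminal acetyltransferase, Elmod3, Entr1, Gm15816 and Gm12514, all lower, and 1700001O22Rik, higher.

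Lists of contractile, respiratory and degradation genes held almost no called gene, where 0.349% of all genes were called. At that share a list of this size may hold none. Of 77 nuclear genes of oxidative phosphorylation 0 were called by edgeR, DESeq2 or limma voom and 0 had an unadjusted p under 0.05 (median -0.06, and 0.02 without high-fat 4), and high-fat 3 was the highest high-fat library for 76 of them. Also with 0 calls by each of the 3 tools were 13 genes of mitochondrial DNA (median 0.24), 15 slow-fibre genes (0.11), 18 fast-fibre genes (-0.02), 35 calcium-handling genes (-0.05), 30 autophagy and lysosome genes (-0.03) and 31 muscle ubiquitin ligases (0.01). At an unadjusted p under 0.05 these held at most 4 genes each, the 4 among the ubiquitin ligases. Fbxo32, the atrophy ligase often read beside Trim63, was at -0.25 ± 0.16 (adjusted p = 0.629). Of 30 glucocorticoid- and FoxO-responsive genes 0 rose and 2 fell, Angptl4 and Cdkn1a. Of 30 sarcomere genes Lmod3 alone was called. In simulated data with these library sizes, only genes with a mean count of at least 50 were changed. This comparison called 64% of those set to a 1.5-fold change and 94% of those set to a 2-fold change. Each simulated gene was drawn on its own, so shifts of a whole library were not simulated. The shares therefore do not measure what was missed in these lists.

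**Figure D4:**
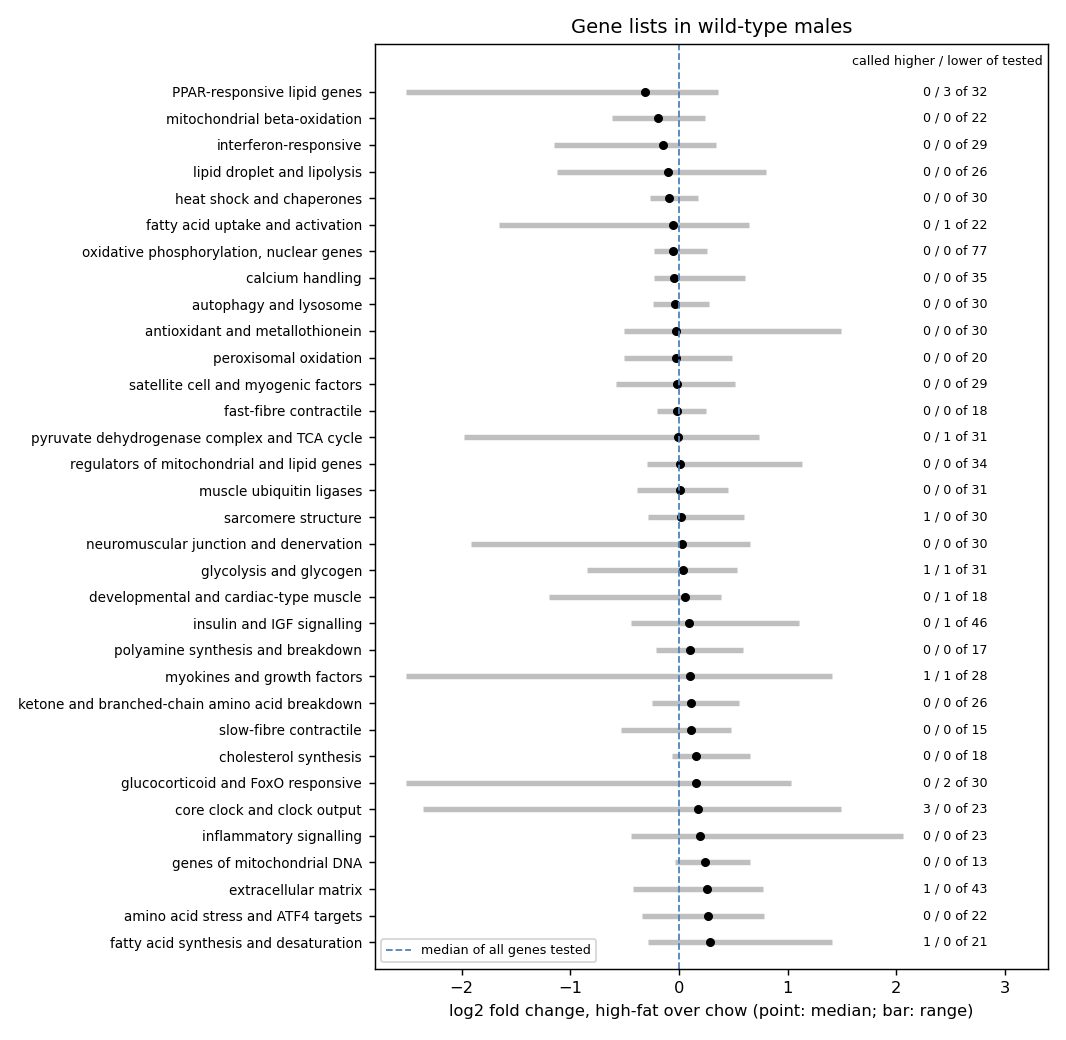
Log2 fold change, high-fat over chow, of 33 gene lists in wild-type males (points, median of the tested members; grey bars, lowest to highest member; dashed line, median of all genes tested), with the numbers called higher and lower of those tested at the right. The PPAR-responsive list has the lowest median (-0.32) and fatty acid synthesis the highest (0.29); no list has more than 3 members called.

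Matrix genes were fitted higher almost throughout, with 1 call. Of 43 extracellular matrix genes 1 rose, 0 fell and 42 were not called, 39 were fitted higher, and the median was 0.26. The gene that rose was Tnxb, tenascin X, at 122, 127, 103 and 95.2 CPM in the high-fat muscles, against 72.7, 85.0, 78.7 and 56.2 CPM in the chow muscles (0.61 ± 0.14, adjusted p = 0.0466). Tnxb kept its call only without high-fat 4, and 0 matrix genes were called in the other 7 omissions or without both high-fat 3 and chow 4. The median was 0.10 without chow 4. Markers of fibro-adipogenic progenitors, the matrix-making cells between the fibres, summed to 2770, 2933, 2747 and 2626 CPM in the high-fat muscles, against 2212, 2118, 2407 and 1679 CPM in the chow muscles. These sums did not overlap, while 2 of the 16 markers lay higher without overlap, where 3.15% of all genes did. Of the 16 markers 15 were fitted higher, and none of them was called or at 0. Chow 4 was the lowest chow library for 11 of the 16. Gsn was the largest part of the sums, with means of 1220.0 CPM in the high-fat group and 874.0 CPM in the chow group. Col1a1, Col1a2, Col3a1, Lum and Dcn are also on the matrix list, so the sums are not separate from it. Macrophage markers summed to 229 to 263 CPM in the high-fat group and 136 to 233 CPM in the chow group (18 of 20 fitted higher, 0 called, none at 0). Tendon markers summed to 167 to 293 CPM in the high-fat group and 110 to 230 CPM in the chow group (12 of 12 fitted higher, 0 called, none at 0). Chow 4 was the lowest chow library for 18 of the 20 macrophage and 12 of the 12 tendon markers. Its sums were 136.1 and 109.7 CPM, against at least 183.4 and 186.5 CPM in the other chow libraries. In whole muscle, more cells of a type and more RNA per cell cannot be told apart, and the part of these cells in the matrix values was not tested. Cfd, the adipocyte protease adipsin, stood at 52.6, 51.6, 45.2 and 48.4 CPM in the high-fat muscles, against 8.47, 13.1, 14.9 and 9.04 CPM in the chow muscles, apart but not called (2.12 ± 0.48, adjusted p = 0.0517). Of 13 keratinocyte markers Krt1, Krt5, Krt14, Krt15 and Dsg1a were at 0 in all 8 libraries.

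Wild-type females answered the same diet in the opposite direction for Pdk4, Acot2, Angptl4 and Idh1. The female comparison called 3558 genes (25.4%), 1804 higher (12.9%) and 1754 lower (12.5%), and the difference between the male and the female response was called for 2270 genes (16.2%), 1179 with the higher value in males (8.41%) and 1091 with the lower (7.78%). Pdk4 averaged 311 ± 29.3 CPM in high-fat and 1229 ± 339.5 CPM in chow males, but 691 ± 227 CPM in high-fat and 263 ± 166 CPM in chow females (SD, n = 4 each). Its female log2 fold change was 1.39 ± 0.38 (adjusted p = 0.0116), and the male response minus the female one was -3.38 ± 0.55 (adjusted p = 0.000725). Acot2 averaged 7.91 ± 1.83 CPM in high-fat and 21.7 ± 1.85 CPM in chow males, but 13.6 ± 0.90 CPM in high-fat and 6.72 ± 1.53 CPM in chow females, a difference in response of -2.46 ± 0.31 (adjusted p = 3.47e-05). Angptl4 averaged 2.06 ± 0.82 CPM in high-fat and 11.5 ± 3.03 CPM in chow males, but 8.59 ± 4.29 CPM in high-fat and 3.22 ± 0.69 CPM in chow females, a difference of -3.93 ± 0.55 (adjusted p = 0.000161). All 3 fell in males and rose in females. Idh1 rose in males and fell in females (-0.82 ± 0.13, adjusted p = 0.000257), a difference of 1.56 ± 0.18.

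Of the 26 genes that fell in males, 10 rose and 0 fell in females, and of the 23 that rose in males 2 rose and 2 fell in females. The sex difference was called for 24 of the 26 and 15 of the 23. These genes were picked on the male values that also enter the difference, so the counts are a description. The PPAR-responsive list had 15 of 32 genes called higher and 0 lower in females (median 0.45), and oxidative phosphorylation 50 of 77 higher and 0 lower (median 0.42), whereas matrix genes had 0 of 43 higher and 12 lower (median -0.36). Slow-fibre contractile genes also had 6 of 15 called higher and 0 lower in females (median 0.76). Tendon markers had 0 of 12 higher and 8 lower there (median -1.16), and macrophage markers 0 of 20 higher and 9 lower (median -0.61). What part fibre and cell make-up had in the female list counts was not tested. The count of sex differences rested on how the libraries were grouped. It was 1251 with only the libraries whose title and file name the same group, 32 when titles grouped all 31 libraries, and 1400 without chow 2.

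Male knockouts, 3 on high fat and 4 on chow, answered the diet in the direction of wild-type males for most of these genes. Of the 23 genes that rose in wild-type males 10 also rose in knockouts and 22 were fitted higher, and of the 26 that fell 9 also fell and 19 were fitted lower. The diet called 818 genes in knockouts (5.83%), 562 higher (4.01%) and 256 lower (1.83%). The difference between the genotypes was called for 0 genes by edgeR (0%), with 1456 at an unadjusted p under 0.05, for 41 by DESeq2 and for 147 by limma voom, and for 43 without chow 4 and 10 without high-fat 4. In simulated data that difference was called for 19% of the genes set to differ 1.5-fold. It was called for 68% of those set to differ 2-fold, again with each gene drawn on its own. Acot2 fell in the knockouts too (-1.26 ± 0.23, adjusted p = 0.00416), as did Pdk4 (-1.53 ± 0.42, adjusted p = 0.039), while Angptl4 was at -1.34 ± 0.43 (adjusted p = 0.0617). Slc15a5 (1.68 ± 0.28, adjusted p = 0.00261) and Npnt (1.46 ± 0.23, adjusted p = 0.00196) rose. Among the clock genes Per2 was at 0.43 ± 0.33 (adjusted p = 0.414) and Tef at 0.03 ± 0.11 (adjusted p = 0.873) in knockouts, and neither difference between genotypes was called. Matrix genes had 10 of 43 called higher and 0 lower in knockouts (median 0.63). Slow-fibre contractile genes had 0 of 15 higher and 3 lower there (median -0.74), and the part of fibre make-up was not tested.

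**Figure D5:**
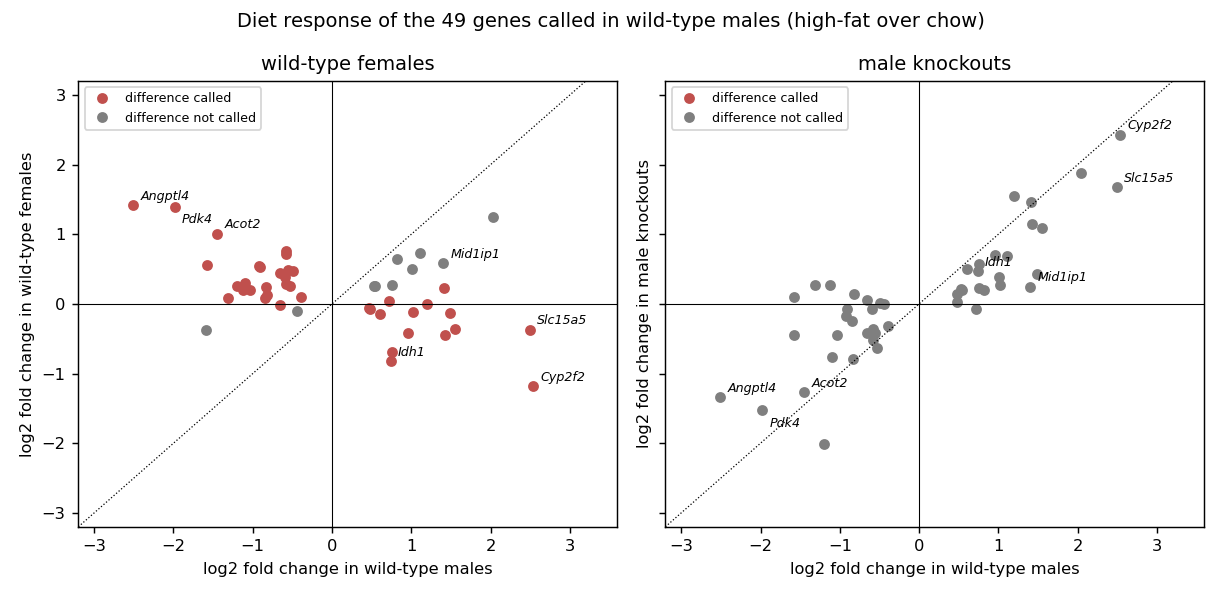
Log2 fold change, high-fat over chow, of the 49 genes called in wild-type males (horizontal axis) against wild-type females (left) and male knockouts (right) on the vertical axis; red points have a called difference between the 2 responses and the dotted line marks equal response. Angptl4, Pdk4 and Acot2 lie in the opposite quadrant for females and near the line or between it and 0 for knockouts, where 0 differences are called.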

How the data were processed

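The 8 libraries were made from polyA RNA of frozen, powdered gastrocnemius with a stranded kit, from RNA with an integrity number above 8, per the labels' protocols. The authors deposited raw read counts per gene for each library. They used bcl2fastq, featureCounts and build mm10, per the submitters' processing notes. Which aligner, annotation and strand setting they used is not given in the sources used here. Symbols and coordinates come from GENCODE M21 and cover 37693 of 39017 identifiers; those without a symbol held 0.1073% of the counts.

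Differences were tested with edgeR 4.0.16 in R 4.3.3 (quasi-likelihood F test, TMM scaling, robust dispersion, filterByExpr with a minimum count of 10) in 1 model of 30 libraries in 8 groups, with 22 residual degrees of freedom. Benjamini-Hochberg adjustment ran over 14024 genes, and a gene is called under 0.05. A standard error is the fold change divided by the square root of F, and CPM are TMM-scaled. The common dispersion was 0.0202 (14.2% variation between animals). The chi-square per gene between replicates was at least 4.8, and 0 pairs were identical. Levels given for 3 counts cover counting error only.

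The comparison, the gene lists and the rule for named genes were chosen with earlier results of these data known. Named genes were the 15 largest increases and 15 largest decreases called with an average log2 CPM not below 0, without predicted names, up to 4 genes of each list with the smallest p, Trim63, Ddx3y, and the 5 largest of each sign for each difference in response. Not every one is printed, and 1 gene is not reported here. Alternatives were DESeq2 1.42.0, limma 3.58.1 (voom), other scaling, filtering and grouping, a GC correction, a replicate block and the omission of each library. Simulated data, with 100 of 13816 genes changed at each fold, served to test the fit; 9 unchanged genes were called for the diet in wild-type males. Promoter windows were taken from RefSeq.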

Additional observations from a re-analysis of the deposited data

Results flagged for a closer look

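Single libraries stood far from the other 3 of their group in 10 of 230 groups looked at (115 named genes, each in both diets), where the gap to the nearest library, as a share of the range, exceeded Dixon's critical value for 4 samples. Chance gives such a gap in about 1 of 20 groups. In the high-fat group these were high-fat 1 for Fbp2 (26.02 CPM, low), high-fat 3 for Cblb (13.29 CPM, low), and high-fat 4 for Neto2 (26.09 CPM, high). In the chow group they were chow 2 for Slc25a20 (89.73 CPM, low) and chow 4 for Pdk4 (719.9 CPM, low), Usp2 (156.3 CPM, high), Per2 (12.32 CPM, high), Odc1 (191.3 CPM, high), Chrna2 (2.72 CPM, low) and Eci2 (69.6 CPM, high).

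The diet response of wild-type males differed from that of wild-type females for 45 named genes, by edgeR's test of the difference itself at an adjusted p under 0.05. They were named because they were called on the male values that enter the difference, or were among its largest. Their number is therefore a description, and over all 14024 genes the difference was called for 16.2%. The values are the male log2 fold change minus the female one, so that a positive value means a higher response in males. Higher in males were Slc15a5 (2.87), Cacna2d4 (1.92), Npnt (1.18), Lrrn4cl (1.38), Idh1 (1.56), Slc25a30 (1.87), Cyp2f2 (3.72), Tspan4 (1.13), Tef (0.53), Lmod3 (0.55), Usp2 (0.68), Neto2 (1.2), Casp12 (1.46), Per2 (1.62), Tnxb (0.75), Cfd (3.48), Cyp2e1 (4.55), Angptl7 (2.94), Kera (3.17) and Anxa8 (3.11). Lower in males were Acot2 (-2.46), Angptl4 (-3.93), Slc25a36 (-0.95), Zranb3 (-0.64), Mybph (-1.45), Fbp2 (-1.39), Slc20a1 (-0.98), Atp1b2 (-0.79), Ppp1r3c (-0.93), Pcbp2 (-0.5), Miga2 (-1.47), Elmod3 (-1.34), Klhl31 (-0.88), Pdk4 (-3.38), Alg3 (-1.29), Ppp1r3d (-1.23), Cdkn1a (-1.08), Zhx2 (-1.1), Naa40 (-1.04), Entr1 (-0.96), Wsb1 (-1.32), Aqp7 (-1.45), Chrna2 (-3.69), Acot1 (-3.05) and Cidea (-3.62). Of these, Cfd, Cyp2e1, Chrna2, Angptl7, Acot1, Cidea, Kera and Anxa8 were not called for the diet within wild-type males.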

How the results depend on the processing

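The 49 genes called in wild-type males kept their direction in each alternative run, but their number did not hold. Increases and decreases numbered 37 and 32 with the libraries whose title and file give the same group, 71 and 59 by DESeq2, 63 and 61 by limma voom, and 41 and 43 after a GC trend was removed. They numbered 0 and 1 when titles grouped all 31 libraries, 17 and 11 without high-fat 3 and chow 4, chosen after seeing the data, and 11 to 28 and 6 to 38 in the 8 omissions. Sex differences numbered 2270, 32 by title, 1251 with matching libraries and 1400 to 3041 in the omissions. Genotype differences numbered 0, 41 by DESeq2, 147 by limma voom, 7 without the farthest pair and 0 to 43 in the omissions. The cause of these shifts was not tested. Trim63 was at -0.011 without chow 3 and at 0.362 without chow 4, the lowest and highest of its omissions, and called in neither. Of 114 named genes 53 kept the same verdict, called or not called, in every setting. Among the 49 called genes only Acot2 stayed called in all 19 alternatives, so the rest of the 53 were genes not called.

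The replicate numbers did not pair the libraries: same-numbered libraries correlated at 0.249, 0.168, -0.271 and 0.127 in their deviations from the group means, and high-fat 3 correlated best with chow 4 (0.354). With the number as a block, 25 genes rose and 14 fell, against 29 and 27 in the same 8 libraries without it.

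Low counts limit Cyp2f2, Irx3os and Acot1. In the simulation only genes with a mean count of at least 50 were changed, and each gene was drawn independently of the others. Neither the hour of collection nor the strand setting is known here.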
